A study of Mus musculus with 28 samples.

Results

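The 10 genes described here encode chemokines that draw T cells, monocytes and neutrophils, or, for Cxcl11, a chemokine gene that the annotation used here lists as a transcribed pseudogene. They were taken as a fixed list of names: Cxcl9, Cxcl10, Cxcl11, Cxcl16, Cxcl1, Cxcl2, Cxcl5, Ccl2, Ccl5 and Ccl7, which are 10 of 49554 annotated genes counted. All 10 names matched the gene table. Histone marks were read at each gene by chromatin immunoprecipitation and sequencing: trimethylation of histone H3 at lysine 9 (H3K9me3), found on silenced chromatin, and its acetylation (H3K9Ac), found on active promoters and enhancers.

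The groups were MC38 Setdb1 KO, MC38 control, B16 Setdb1 KO and B16 control, with 3 numbered libraries of each mark per group. MC38 is a mouse colon adenocarcinoma line and B16 stands for B16OVA, a mouse melanoma line. Every group had been transduced with a CRISPR vector that confers puromycin resistance and was grown in puromycin. In the KO groups the vector carried a guide against Setdb1, the gene of an enzyme that trimethylates H3K9, and in the control groups it was empty. The labels do not say whether a KO line was 1 clone or a mixed population, nor whether numbered libraries came from separate cultures, so p-values measure the spread between these libraries. They give no cytokine treatment and no time point.

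Chemokines bind G protein-coupled receptors and guide leukocytes along their gradients. Cxcl9 and Cxcl10 are interferon-induced ligands of Cxcr3, the receptor of activated T cells and natural killer cells. Cxcl11 is named after a further such ligand. Since the annotation used here lists it as a transcribed pseudogene, its H3K9Ac is not read as that of a working ligand gene. Cxcl1, Cxcl2 and Cxcl5 are ligands of the neutrophil receptor Cxcr2, and inflammatory signals raise many chemokine genes through NF-kB, while interferons act through factors of their own. H3K9Ac at such a gene shows an active or poised state, not how much chemokine a cell makes, and neither RNA nor protein was measured here.

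A value in these files is a count of reads inside islands, stretches that the submitters' peak caller found enriched in 1 library. A value of 0 therefore means that no island was called there, not that no read fell there. Each gene region ran from gene start to gene end plus 2 kb on both sides, and levels in RPM give the reads of a region after TMM scaling to 1000000 reads counted over all regions of that library. Islands held 28453371 to 69359709 reads in the MC38 H3K9Ac libraries and 46394754 to 78087809 in the B16 ones. The H3K9me3 islands held 16922847 to 45419584 reads in MC38 and 15200766 to 27155542 in B16. H3K9Ac reads per kb of island ranged over 64.4 to 158 in MC38 and 106.5 to 174 in B16, so depth moved with the line, and its part in the line differences below was not tested. A weaker mark in every cell and fewer cells that carry it cannot be told apart. As a check of the lines, edgeR (adjusted p under 0.05) called 8 of 8 melanocyte markers lower in H3K9Ac in MC38 than in B16, in each genotype. It called 9.59% of all H3K9Ac regions lower in control and 9.04% in KO libraries. The summed level of these markers was 199 to 343 RPM in MC38 against 951 to 1620 RPM in B16. Tyr, Tyrp1 and Dct, which define pigment cells, had no H3K9Ac island in any MC38 library. Of 8 gut epithelium markers the same test called 1, Krt8, higher in MC38 in each genotype and 0 lower. It called 9.8% of all regions higher in control and 8.83% in KO libraries. The check thus marks B16 as a pigment line but does not mark MC38 as gut epithelium. The summed H3K9Ac of the gut markers was 151 to 195 RPM in MC38 against 131 to 174 RPM in B16, that of 8 leukocyte markers 66.4 to 97.1 against 46.2 to 69.5 RPM, and that of 6 fibroblast markers 122 to 156 against 157 to 194 RPM. Their part in the line differences was not tested. H3K9Ac at Setdb1 itself (111 ± 5.24 RPM in MC38 Setdb1 KO against 96.2 ± 7.73 in MC38 control, 78.8 ± 8.98 in B16 Setdb1 KO against 76.6 ± 5.06 in B16 control; SD, n = 3 each) does not read the effect of a guide, so the files hold no direct check of the knockout.

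The promoter sequences below are shown because H3K9Ac islands lay over some of these starts in every library and over others in few or none. They are the 250 bases before the annotated start, 5′ to 3′ on the gene's own strand, from RefSeq tables of build GRCm38.p6 (the assembly of mm10); 4 of the 10 genes had an entry. Capitals mark matches to the NF-kB consensus, read on either strand.

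Cxcl9 (chr5:92328080-92328329, minus strand): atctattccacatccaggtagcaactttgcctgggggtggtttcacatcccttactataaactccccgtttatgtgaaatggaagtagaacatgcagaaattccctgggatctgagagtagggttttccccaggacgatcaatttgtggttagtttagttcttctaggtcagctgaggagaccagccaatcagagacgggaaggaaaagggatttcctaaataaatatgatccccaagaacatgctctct
Cxcl10 (chr5:92348890-92349139, minus strand): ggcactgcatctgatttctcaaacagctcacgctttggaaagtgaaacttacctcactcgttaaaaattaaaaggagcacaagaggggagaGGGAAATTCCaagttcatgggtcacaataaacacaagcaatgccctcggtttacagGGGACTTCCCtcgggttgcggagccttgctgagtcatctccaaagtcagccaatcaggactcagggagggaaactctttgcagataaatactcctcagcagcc
Cxcl1 (chr5:90890995-90891244, plus strand): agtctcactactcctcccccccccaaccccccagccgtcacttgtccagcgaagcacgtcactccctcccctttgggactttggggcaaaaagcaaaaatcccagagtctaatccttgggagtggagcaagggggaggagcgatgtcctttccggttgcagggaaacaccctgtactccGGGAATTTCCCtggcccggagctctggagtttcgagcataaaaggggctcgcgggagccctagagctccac
Cxcl2 (chr5:90903649-90903898, plus strand): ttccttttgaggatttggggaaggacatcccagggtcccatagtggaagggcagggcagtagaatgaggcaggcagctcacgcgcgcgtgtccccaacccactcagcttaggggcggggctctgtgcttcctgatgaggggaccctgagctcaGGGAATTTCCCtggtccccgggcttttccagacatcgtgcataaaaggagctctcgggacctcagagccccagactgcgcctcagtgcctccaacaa

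The NF-kB consensus was matched at 2 places in the Cxcl10 promoter, starting 159 and 103 bases before the start (positions -159 and -103), and in 1 stretch each of Cxcl1 and Cxcl2, where 2 matches overlap. It was found in 3.75% of all 27025 promoters of this length. The core of the interferon-stimulated response element, GAAANNGAA on either strand, was matched in Cxcl9 at position -175 and in Cxcl10 at position -213, against 7.16% of all promoters. With a further A required at its end, the Cxcl10 match remained, against 3.04% of promoters. The interferon-gamma-activated site TTCNNNGAA was matched in none of the 4 promoters, against 7.18% of all, and TATAAA on the gene's strand only in Cxcl9 at position -195, against 8.12%. These matches overlap no other motif searched. H3K9Ac islands overlapped the 250 bases of Cxcl10 and of Cxcl1 in 6 of 6 MC38 and 6 of 6 B16 libraries. Those of Cxcl2 were overlapped in 1 MC38 and 3 B16 libraries, and those of Cxcl9 in no library of either line. No H3K9me3 island touched any of the 4 promoters.

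H3K9me3 was nearly absent from the island lists at these genes. Of the 10, 8 had no H3K9me3 island in any of the 12 libraries: Cxcl9, Cxcl10, Cxcl11, Cxcl16, Cxcl1, Cxcl2, Cxcl5 and Ccl5. The nearest H3K9me3 island to Cxcl10 lay 38.9 to 187 kb away in MC38 and 96 to 187 kb away in B16. Distances to Cxcl16 were shorter, 17.4 to 149 kb in MC38 and 3.02 to 26.8 kb in B16.

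The exceptions were Ccl2 and Ccl7, which encode monocyte attractants that bind Ccr2 and lie next to each other on chromosome 11. Ccl2 (chr11:82035577-82037452) had 32 and 11.7 RPM of H3K9me3 in B16 Setdb1 KO libraries 1 and 3 and no island in library 2, against none in the 3 B16 control libraries. Those RPM values stood for 343 and 129 island reads, and the islands covered 100% and 41.7% of the region. Ccl7 (chr11:82045712-82047525) had 22.5 and 23.6 RPM in B16 Setdb1 KO libraries 1 and 3 and none in library 2, against 17.7 RPM in B16 control library 1 and none in the other 2. In both regions B16 KO library 2 and most B16 control libraries were at 0, so the groups overlapped. The 3 libraries with islands at these genes were the 3 deepest B16 H3K9me3 libraries, with 27155542 and 23614143 island reads in KO libraries 1 and 3 and 22738345 in control library 1, against 15200766 to 18635578 in the others. H3K9me3 islands also covered more of the genome in B16 Setdb1 KO (430.9, 367 and 406.2 Mb) than in B16 control (325.5, 325.5 and 284.9 Mb), and the part of depth and coverage in these values was not tested. Neither gene had an H3K9me3 island in any MC38 library. The nearest one lay 37.1 to 88.2 kb from Ccl2 in MC38 Setdb1 KO and control libraries and 0 to 39.8 kb from it in B16 libraries.

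Setdb1 makes this mark, but its loss could hardly be seen here, since no member had an island in MC38 control and 1 member, Ccl7, had one in 1 of 3 B16 control libraries. Only Ccl2 and Ccl7 had enough reads to be tested (a mean of 10 island reads over the 12 libraries), and only in B16. The edgeR quasi-likelihood test (adjusted p under 0.05 over all regions tested) called neither in B16 Setdb1 KO against B16 control. MC38 Setdb1 KO against MC38 control and the difference between the effects could not be fitted for either gene. Over all 25677 regions tested, the test called 0.312% in B16, 0.136% in MC38 and 0.397% for the difference. At Ccl2 the adjusted p in B16 was 0.624, with the KO libraries the only ones with islands, and no fold is given against a group at 0. At Ccl7 the log2 change in B16 was 1.38 (SE 3.39, edgeR adjusted p = 1). Beside 0 called members, neither test in B16 reached an unadjusted p under 0.05, and DESeq2 and limma also called 0.

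**Figure D1:**
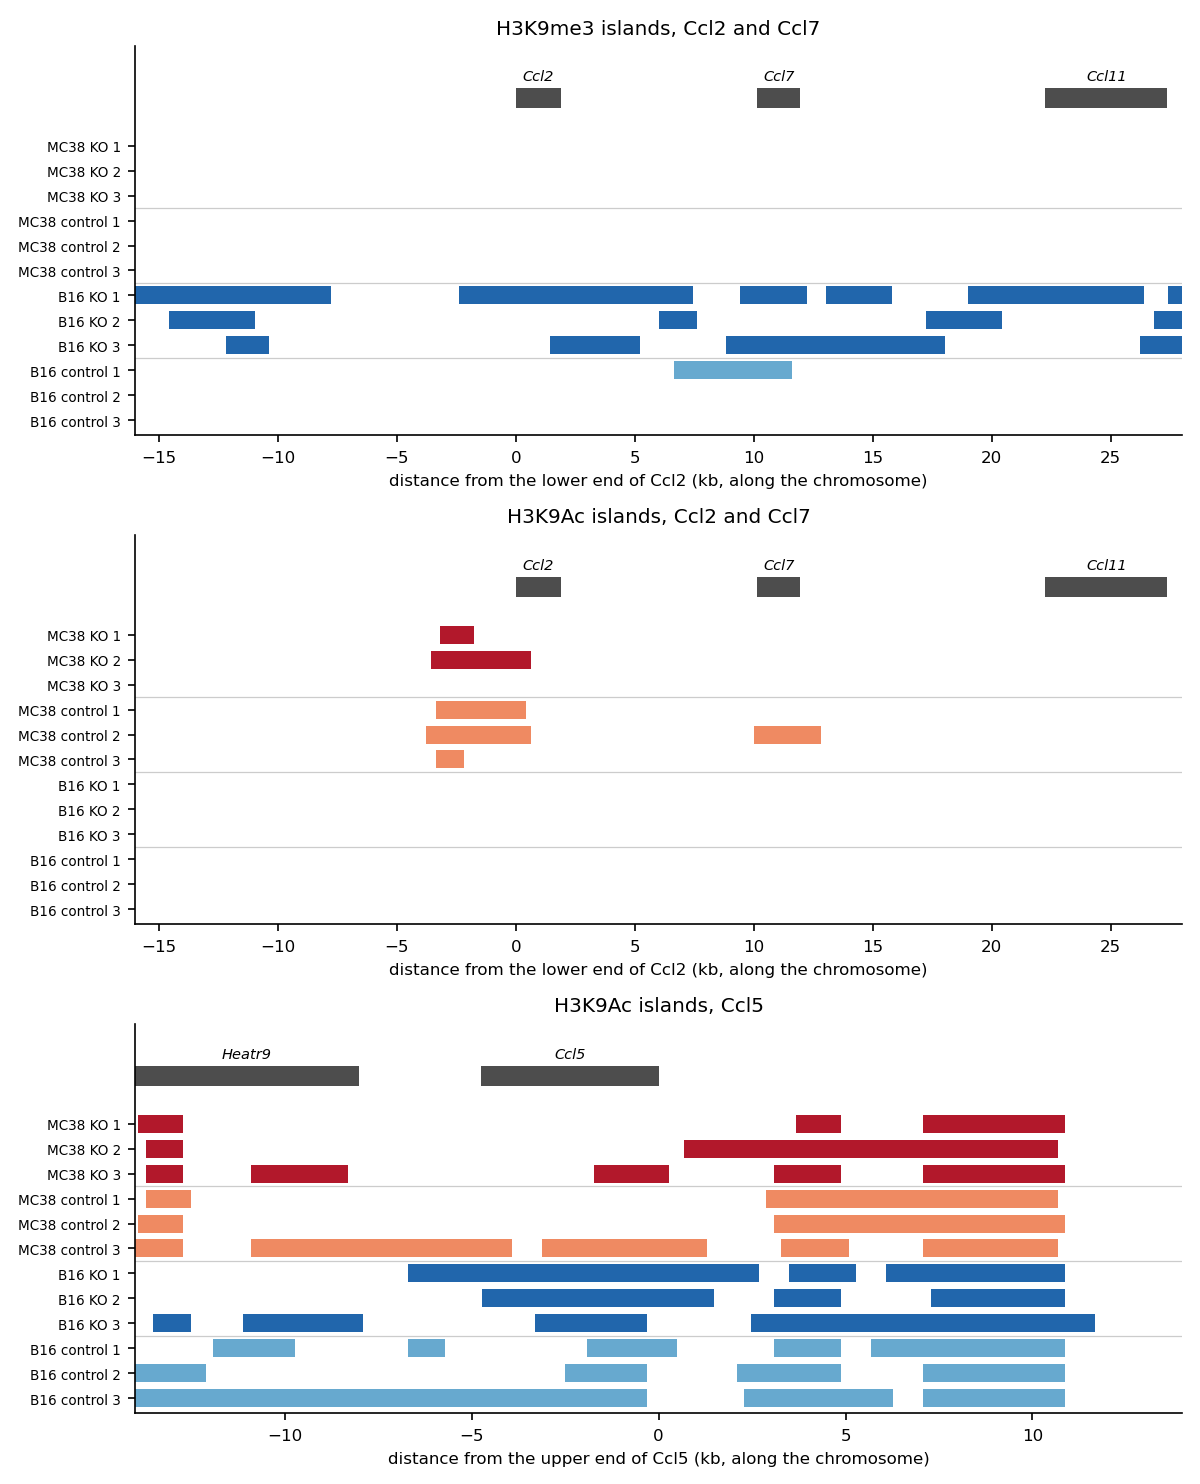
Islands in each of the 12 libraries around Ccl2 and Ccl7 (H3K9me3 in the upper panel, H3K9Ac in the middle panel) and around Ccl5 (H3K9Ac, lower panel), as distance in kb along the chromosome from 1 end of the gene named on the axis. Each coloured bar is 1 island, grey bars are genes, and rows are libraries; B16 libraries alone carry H3K9me3 islands near Ccl2, and MC38 libraries alone carry H3K9Ac islands there.

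H3K9Ac set the members apart from each other, and their order differed between the lines. By the length of the region, Cxcl1 was highest in MC38 (1.7 ± 0.372 RPM per kb, SD, n = 6), followed by Cxcl16 (1.27 ± 0.209), Cxcl10 (1.02 ± 0.226) and Cxcl2 (0.694 ± 0.179). The other 6 had between 0.0518 RPM per kb (Cxcl9) and 0.578 (Ccl2) in MC38. In B16 Cxcl11 was highest (2.45 ± 0.943 RPM per kb, SD, n = 6), followed by Cxcl10 (1.6 ± 0.613), Cxcl16 (1.38 ± 0.245), Cxcl1 (1.03 ± 0.246), Ccl5 (1.03 ± 0.305), Cxcl2 (0.701 ± 0.126) and Cxcl5 (0.179 ± 0.21), with Ccl2, Ccl7 and Cxcl9 at 0. Cxcl11 thus stood at rank 1 of 10 in B16 and rank 9 in MC38, where it had 0.118 ± 0.144 RPM per kb. Neighbours in either order overlapped in their ranges over 6 libraries, except Cxcl2 (0.525 to 0.866 RPM per kb) and Cxcl5 (0 to 0.484) in B16. Cxcl10, Cxcl16, Cxcl1 and Cxcl2 had an island in 12 of 12 libraries, Cxcl11, Cxcl5 and Ccl5 in 9, Ccl2 in 4, and Ccl7 and Cxcl9 in 1 each.

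**Figure D2:**
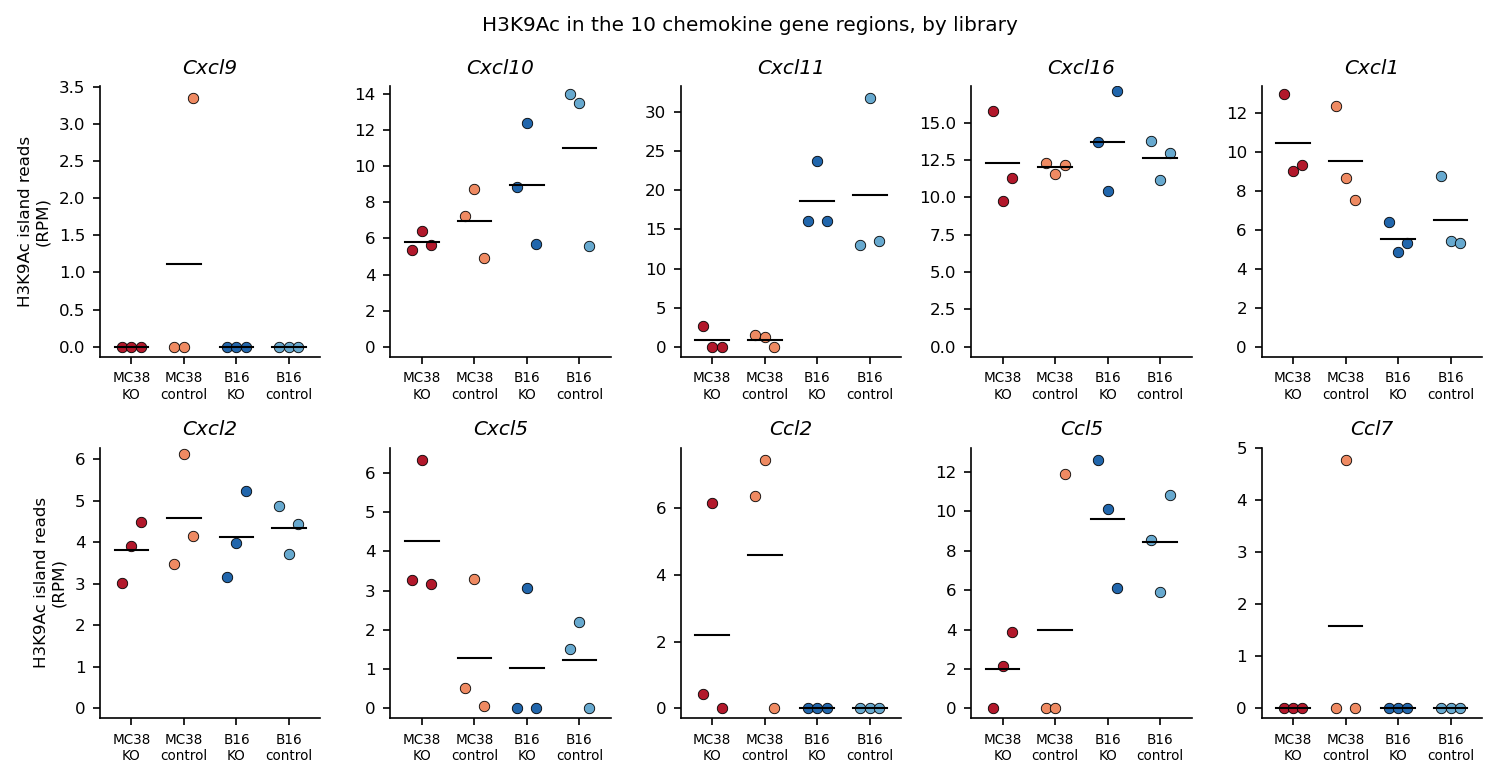
H3K9Ac island reads (RPM, linear axis, different range in each panel) in the 10 gene regions. Each point is 1 library, replicates 1 to 3 from left to right within a group, and the line is the group mean; Cxcl11 is the one gene with no overlap between MC38 and B16 libraries.

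Setdb1 KO was not followed by a called H3K9Ac change at any member in either line. Of the 10, 9 could be tested, Cxcl9 having a mean of 9.25 island reads. With Ccl2 and Ccl7 at 0 in all 6 B16 libraries, 7 could be fitted in B16 and for the difference between the lines. The edgeR test called 0 of 7 in B16 Setdb1 KO against B16 control, 0 of 9 in MC38 Setdb1 KO against MC38 control, and 0 of 7 for the difference between the lines. It called 0.0839%, 0.126% and 0.174% of the 33363 regions tested, and the members' counts are near those shares. No member had an unadjusted p under 0.05 in these comparisons, and neither DESeq2 nor limma called one. The median log2 change of the members that could be fitted was -0.07 in B16 and -0.27 in MC38, beside 0 over all regions in each line.

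Cxcl16, a transmembrane chemokine that binds Cxcr6, was the steadiest. It had 15.8, 9.77 and 11.3 RPM in MC38 Setdb1 KO libraries 1 to 3 and 12.3, 11.6 and 12.2 in MC38 control libraries. In B16 it had 13.7, 10.4 and 17.1 RPM in the KO libraries and 13.8, 11.2 and 13 in the control libraries. All 4 groups overlapped. The KO log2 change was 0.03 in MC38 and 0.12 in B16 (SE 0.241 in each, edgeR adjusted p = 1 in each). Its island was shared with the neighbouring gene Med11 in 12 of 12 libraries, and with Zmynd15 in 6, so these counts do not separate the genes.

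Cxcl10 had 5.35, 6.40 and 5.63 RPM in MC38 Setdb1 KO libraries and 7.25, 8.73 and 4.93 in MC38 control libraries. In B16 it had 8.85, 12.4 and 5.69 RPM in KO libraries and 14, 13.5 and 5.58 in control libraries. Library 3 was the lowest of its group in B16 KO and in both controls. The KO log2 change was -0.27 (SE 0.431) in MC38 and -0.30 (SE 0.43) in B16, with an edgeR adjusted p of 1 for each.

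For the neutrophil attractants Cxcl1 and Cxcl2 the KO log2 changes were within 0.3 of 0 in both lines: 0.14 (SE 0.334) in MC38 and -0.24 (SE 0.334) in B16 for Cxcl1, and -0.27 (SE 0.483) in MC38 and -0.07 (SE 0.483) in B16 for Cxcl2. In same-numbered pairs KO minus control at Cxcl1 was 0.6, 0.39 and 1.81 RPM in MC38 and -2.38, -0.6 and -0.01 RPM in B16. These pairs, and those of Cxcl5 in MC38 below, were picked because they kept 1 sign. In every other member and line the pair differences were of mixed sign or included 0. No share of such genes over all regions is given. With the replicate number as a block Cxcl1 was not called in either line (log2 change 0.15, SE 0.197, in MC38 and -0.21, SE 0.198, in B16, with an edgeR adjusted p of 1 in each). The genes with islands in fewer libraries gave much wider errors. At Cxcl5 the change was 1.72 (SE 2.63) in MC38 and -0.28 (SE 2.55) in B16, at Ccl5 -0.98 (SE 2.29) and 0.20 (SE 2.26), and at Cxcl11 -0.04 (SE 1.74) and -0.06 (SE 1.72), each with an edgeR adjusted p of 1. With errors of this size a change of several-fold was not detectable at these genes.

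Cxcl5 illustrates the width of those errors. Islands reached its annotated lower end in 3 of 3 MC38 Setdb1 KO libraries, against 0 of 3 MC38 control libraries. That end was picked from these same islands, and no share of such ends over all genes is given. The counts are a description and not a test of the KO. The level of Cxcl5 was 3.28, 6.33 and 3.17 RPM in MC38 Setdb1 KO and 0.514, 3.29 and 0.0602 in MC38 control, where the groups overlap. Within same-numbered pairs, KO minus control was 2.77, 3.04 and 3.11 RPM in MC38, and with the replicate number as a block the log2 change was 4.31 (SE 2.69, edgeR adjusted p = 1) and was not called. In MC38 control library 2 the island ended 98 bp before that end, and the other 2 control libraries had islands only beyond the upper end. In B16 Setdb1 KO 1 library had an island (3.06 RPM), against 2 in B16 control (1.51 and 2.21 RPM).

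**Figure D3:**
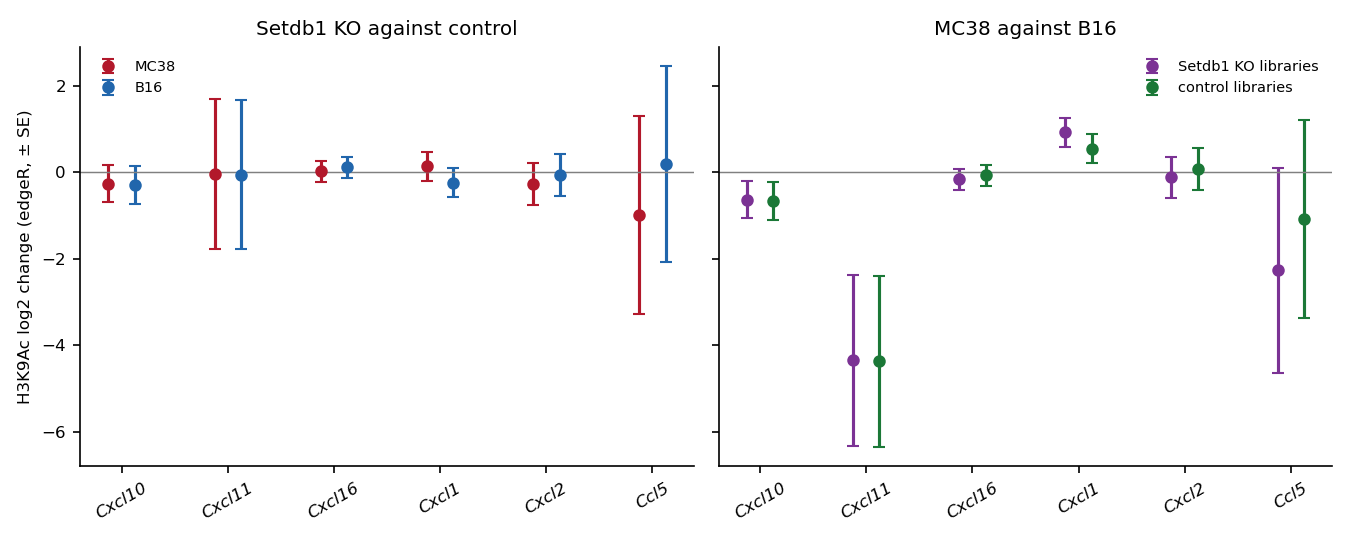
H3K9Ac log2 changes (edgeR, error bars ± SE) of 6 members, those with H3K9Ac in all 6 B16 libraries. Left, Setdb1 KO against control in MC38 and in B16; right, MC38 against B16 among KO and among control libraries. The KO changes of Cxcl10, Cxcl16, Cxcl1 and Cxcl2 lie within 0.3 of 0, and Cxcl11 lies near -4.4 in the line comparison.

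The comparison of the lines was the second question. Within each genotype no member was called in H3K9Ac either: 0 of 8 in MC38 Setdb1 KO against B16 Setdb1 KO, where Ccl7 was at 0 throughout and the edgeR test called 17.9% of 33363 regions (8.83% higher, 9.04% lower), and 0 of 9 in MC38 control against B16 control, where it called 19.4% (9.8% higher, 9.59% lower). At an unadjusted p under 0.05 there were 2 members in the KO libraries, Cxcl1 and Ccl2, and 1 in the control libraries, Ccl2. DESeq2 called Cxcl1 and Ccl2 in the KO libraries and Ccl2 in the control libraries, and limma called Cxcl11 in each. Over all 33363 regions DESeq2 called 10274 in KO and 10769 in control libraries, and limma 7942 and 8500. The same contrasts in H3K9me3 called 0 of 2 members among KO libraries and 0 of 1 (Ccl7) among control libraries, beside 8% (2.98% higher, 5.02% lower) and 7.13% (2.82% higher, 4.31% lower) of 25677 regions, with no member at an unadjusted p under 0.05 and none called by DESeq2 or limma.

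After these counts were seen, 2 further contrasts were added to each fit, the line effect averaged over the genotypes and the KO effect averaged over the lines. The averaged KO effect could be fitted for 0 of the 2 members in H3K9me3 and 7 of the 9 in H3K9Ac, and called none, beside 0.417% of H3K9me3 and 0.18% of H3K9Ac regions. The averaged line effect did not call Ccl7 in H3K9me3 (edgeR adjusted p = 0.0723) and could not be fitted for Ccl2 there, beside 23.1% of regions called. In H3K9Ac it called 3 of the 8 members that could be fitted: Ccl2 and Cxcl1 higher and Cxcl11 lower in MC38. The same test called 33.2% of all H3K9Ac regions tested (16.7% higher, 16.5% lower). That total keeps regions that could not be fitted, so its like among the members is 3 of the 9 tested, which is close to the background share. When 1 library at a time was left out, 0 to 4 members were called; none was called in 6 of these 12 fits, and Cxcl11, Cxcl1 and Ccl2 were called in 4, 4 and 2 of them. Each of the 3 calls was thus lost in most fits with 1 library fewer, while the changes kept their direction. Over these fits the log2 change was -8.64 to -4.06 for Cxcl11 and 0.63 to 0.87 for Cxcl1. The -8.64 came without MC38 Setdb1 KO library 1, which left that group at 0, so its size depends on the prior count. The edgeR adjusted p reached at most 0.0762 for Cxcl11, 0.09 for Cxcl1 and 0.0727 for Ccl2.

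Cxcl11 was the one member whose H3K9Ac libraries did not overlap between the lines. It had 2.71, 0 and 0 RPM in MC38 Setdb1 KO libraries and 1.5, 1.30 and 0 in MC38 control libraries, against 16.1, 23.7 and 16 in B16 Setdb1 KO and 13, 31.7 and 13.5 in B16 control. The lowest B16 library was above the highest MC38 library, and 25.3% of all H3K9Ac regions tested separated the lines in this way, in either direction. The averaged log2 change was -4.36 (SE 1.40, edgeR adjusted p = 0.0371; 6 of 6 MC38 libraries below every B16 library). Within the genotypes it was -4.35 (SE 1.98, adjusted p = 0.171) in KO and -4.37 (SE 1.98, adjusted p = 0.162) in control libraries. DESeq2 gave the gene no p-value.

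The position of the islands differed too. The stretches given here and below were picked from these same islands, each under islands in all 6 libraries of MC38, of B16 or of both. A count of 6 was thus set by the choice of stretch, and no share of such stretches over the genome is given. They are a description of the islands and not a test of the lines. A stretch of 2400 bp over the lower end of Cxcl11 (chr5:92359001-92361400) was under an island in all 6 B16 libraries and in 0 of 6 MC38 libraries. The 3 MC38 libraries with reads had an island of 400 to 1200 bp at the upper end of the gene. Cxcl11 lies within the annotated span of Art3, which shared its island in 9 libraries. Other stretches of the same locus were held in common: chr5:92348401-92350000, over the start of Cxcl10, and chr5:92352401-92354200, between Cxcl10 and Cxcl11, had islands in 6 of 6 MC38 and 6 of 6 B16 libraries.

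Cxcl10 itself was lower in MC38 by its median, 6.01 RPM in MC38 (range 4.93 to 8.73) against 10.6 RPM in B16 (range 5.58 to 14), and the lines overlapped. The averaged log2 change was -0.65 (SE 0.306, edgeR adjusted p = 0.13) and did not pass the test; without B16 control library 3 it was -0.81 and was called (adjusted p = 0.0457). The Cxcl10 island, too, was shared with Art3, in 12 of 12 libraries, so these counts do not separate the genes. Cxcl9 had an island in MC38 control library 3 (3.34 RPM) and in no other library. In B16 the nearest H3K9Ac island to Cxcl9 lay 3.52 to 3.92 kb away, in the stretch chr5:92332001-92333200 near the start of Art3, which had islands in 3 MC38 and all 6 B16 libraries. Among the 3 neighbours, Cxcl10 thus had islands in every library, Cxcl11 mostly in B16 and Cxcl9 in 1 library.

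**Figure D4:**
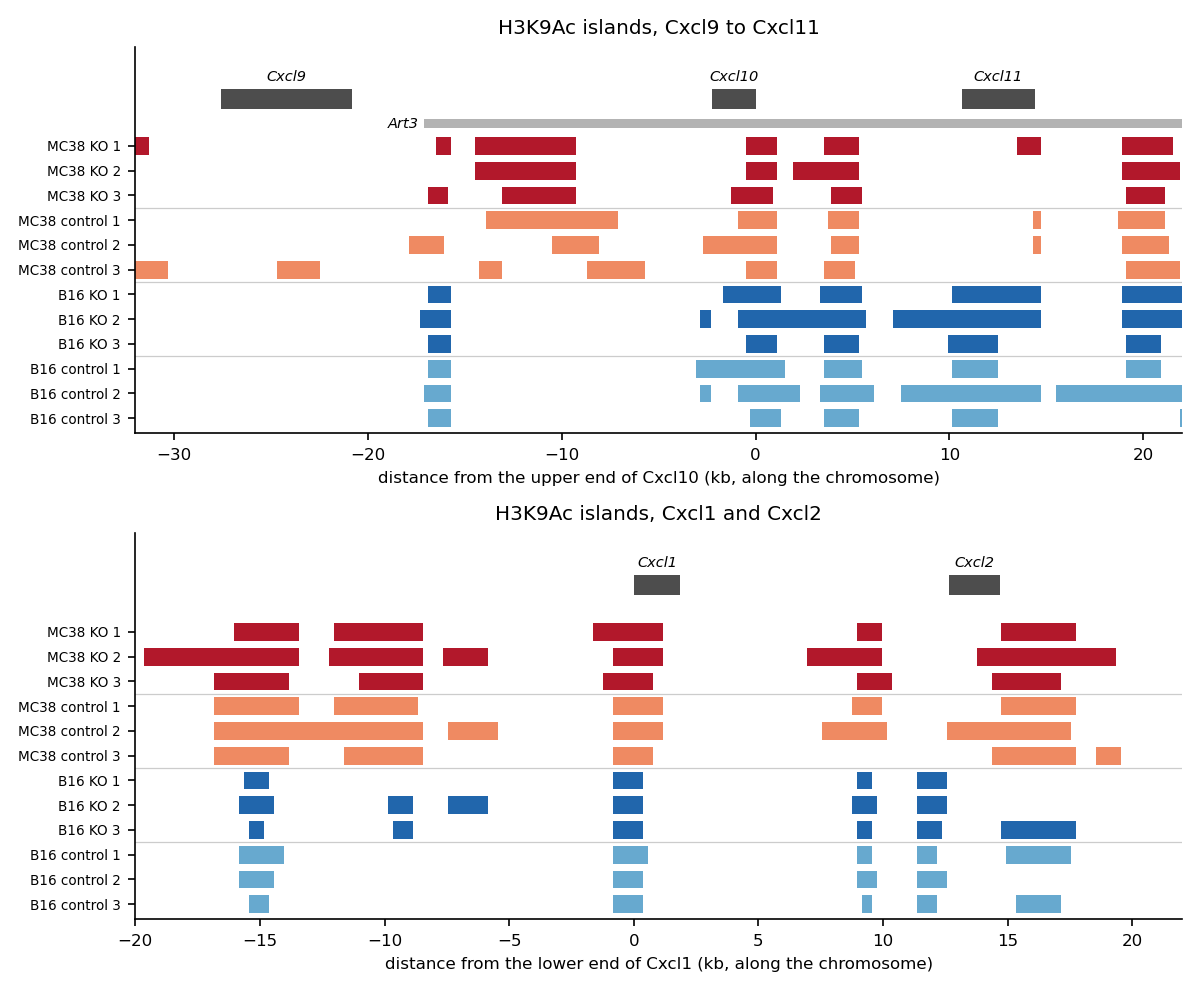
H3K9Ac islands in each of the 12 libraries around Cxcl9, Cxcl10 and Cxcl11 (upper panel) and around Cxcl1 and Cxcl2 (lower panel), as distance in kb along the chromosome. Bars are islands and grey bars genes; the island over the lower end of Cxcl11 is in B16 libraries only, those over the starts of Cxcl10 and Cxcl1 are in all 12 libraries, and the islands next to Cxcl2 lie before the gene in all 6 B16 libraries and after it in all 6 MC38 and 3 B16 libraries.

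Cxcl1 was higher in MC38. It had 13, 9.05 and 9.36 RPM in MC38 Setdb1 KO libraries and 12.4, 8.66 and 7.55 in MC38 control libraries, against 6.41, 4.86 and 5.32 in B16 Setdb1 KO and 8.79, 5.46 and 5.33 in B16 control. B16 control library 1 was the one B16 library within the MC38 range. The averaged log2 change was 0.73 (SE 0.238, edgeR adjusted p = 0.0384), and within the genotypes it was 0.92 (SE 0.337, adjusted p = 0.0913) in KO and 0.55 (SE 0.335, adjusted p = 0.292) in control libraries. With the replicate number as a block shared by both lines, the line difference among KO libraries, MC38 Setdb1 KO against B16 Setdb1 KO, was called (edgeR adjusted p = 0.0147). Islands over the Cxcl1 start reached 756 to 1156 bp into the gene in MC38 and 356 to 556 bp in B16. A stretch of 2400 bp before the gene (chr5:90880201-90882600) had islands in 6 MC38 and 2 B16 libraries.

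Cxcl2 levels overlapped between the lines, with a median of 4.03 RPM in MC38 (3.01 to 6.13) and 4.21 RPM in B16 (3.17 to 5.23), and an averaged log2 change of -0.02 (SE 0.341, edgeR adjusted p = 1). The islands lay in different places. All 6 B16 libraries and 1 of 6 MC38 libraries had an island in the 2 kb before the start, whose 250-base promoter is printed above. In the 2 kb after the gene, 6 of 6 MC38 and 3 of 6 B16 libraries had one. Within the gene itself islands were found in 4 MC38 and 0 B16 libraries. When the region was cut to the gene without flanks the averaged line effect at Cxcl2 was called, higher in MC38 (adjusted p = 0.0443).

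Cxcl5 lies in another stretch of the same chromosome, beside Ppbp, Pf4 and Cxcl3. Its level had a median of 3.22 RPM in MC38 (0.0602 to 6.33) and 0.754 RPM in B16 (0 to 3.06), with an averaged log2 change of 1.06 (SE 1.83, edgeR adjusted p = 0.733). Near it 2 stretches carried islands in all 6 MC38 and in 0 B16 libraries, 1 of 800 bp (chr5:90764001-90764800) and 1 of 3600 bp (chr5:90783801-90787400) over the lower end of Cxcl3, another Cxcr2 ligand.

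**Figure D5:**
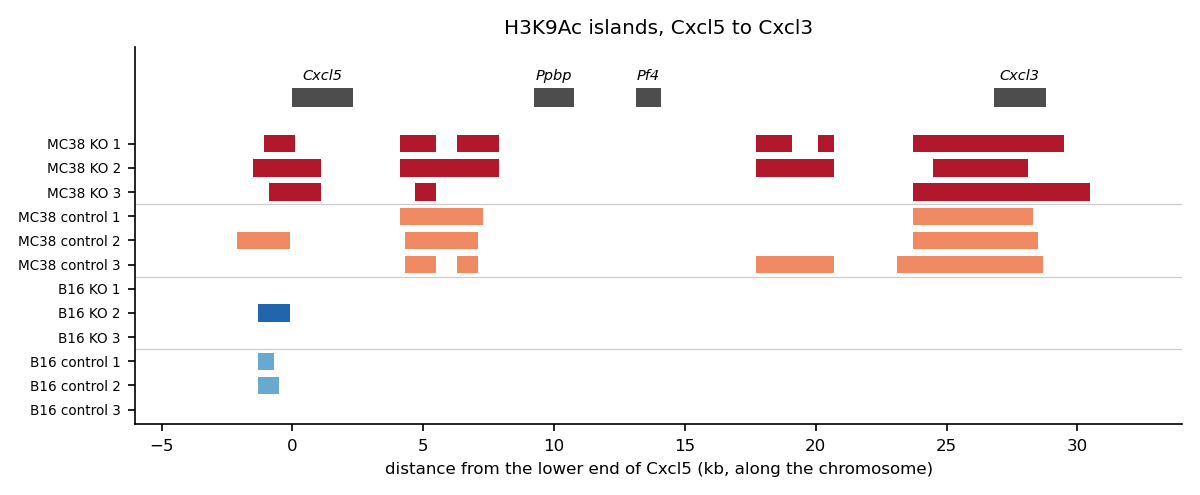
H3K9Ac islands in each of the 12 libraries from Cxcl5 to Cxcl3, as distance in kb along the chromosome from the lower end of Cxcl5. Bars are islands and grey bars genes; the islands 4.7 to 5.5 kb and 24.5 to 28.1 kb from that end are in all 6 MC38 and in no B16 libraries, and those near the lower end of Cxcl5 are in libraries of both lines.

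Ccl2 carried H3K9Ac in MC38 alone. It had 0.423, 6.16 and 0 RPM in MC38 Setdb1 KO libraries and 6.36, 7.45 and 0 in MC38 control libraries, and no island in the 6 B16 libraries, where the nearest one lay 120 to 193 kb away. The averaged line effect was called (edgeR adjusted p = 0.0357; islands in 4 of 6 MC38 and 0 of 6 B16 libraries), and within the genotypes the adjusted p was 0.151 in KO and 0.132 in control libraries. MC38 control library 3 had an island just outside the region, 2177 bp before the gene, so 5 of 6 MC38 libraries had an island within 3 kb; MC38 Setdb1 KO library 3, the shallowest H3K9Ac library with 28453371 island reads, had none there. Ccl7 had 4.77 RPM in MC38 control library 2 and no island in the other 11. The averaged contrast could not be fitted for Ccl7.

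Ccl5, which attracts T cells, showed the other direction. It had 0, 2.15 and 3.88 RPM in MC38 Setdb1 KO libraries and 0, 0 and 11.9 in MC38 control libraries, against 12.6, 10.1 and 6.10 in B16 Setdb1 KO and 8.56, 5.91 and 10.8 in B16 control. MC38 control library 3 lay within the B16 range and the other 5 MC38 libraries below it. The averaged log2 change of -1.67 (SE 1.65, edgeR adjusted p = 0.492) did not pass the test. It was called, lower in MC38, without MC38 control library 3 (adjusted p = 0.013) and, with all 12 libraries, by limma (adjusted p = 0.0368) and by edgeR's bias-adjusted quasi-likelihood (adjusted p = 0.0453), so the call depends on that library and on the form of the test. The Ccl5 island was shared with the noncoding gene Gm32650 in 9 libraries, so these counts do not separate the genes. A stretch of 1600 bp at the upper end of the gene (chr11:83528601-83530200) had islands in 2 MC38 and 6 B16 libraries, while 2 stretches beyond that end (chr11:83534001-83535400 and chr11:83537601-83541400) had them in 6 and 6.

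The other genes of the pathway were read from lists chosen with earlier results of these data known. Of 25 other chemokine ligands, 16 could be tested in each mark. In H3K9Ac the edgeR test called 3 higher and 0 lower in MC38 than in B16 in KO libraries, and 3 higher and 0 lower in control libraries (all regions: 8.83% higher and 9.04% lower in KO, 9.8% and 9.59% in control), with a median log2 change of 0.68 and 0.73 beside 0 and -0.01 over all regions. Cxcl3 had 7.11 ± 2.60 RPM in MC38 Setdb1 KO and 5.70 ± 1.18 in MC38 control (SD, n = 3 each), against no island in the 6 B16 libraries (adjusted p = 0.00156 in KO and 0.00153 in control). Ccl25, a ligand of the gut-homing receptor Ccr9, had 91.9 ± 11 RPM in MC38 Setdb1 KO against 68.9 ± 5.33 in B16 Setdb1 KO, and 91.3 ± 6.02 in MC38 control against 58.3 ± 3.51 in B16 control (adjusted p = 0.0217 and 0.00223). The other calls were Ccl1 in KO libraries (adjusted p = 0.0162) and Cxcl17 in control libraries (adjusted p = 0.0273).

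In H3K9me3, the edgeR test called 0 of the 16 ligands higher and 4 lower in MC38 in each genotype, beside 2.98% higher and 5.02% lower of all regions in KO and 2.82% and 4.31% in control libraries. Of these 4, Ccl3, Ccl4 and Ccl9 lie on the chromosome of Ccl5 and had no H3K9me3 island in the 6 MC38 libraries, and nor did Cx3cl1. The counts differed by tool: DESeq2 called 1 higher and 7 lower in KO libraries and 2 higher and 4 lower in control libraries. Over all 25677 regions DESeq2 called 7218 in KO and 7042 in control libraries, and limma 4660 and 5176, many more than edgeR. With limma there were 0 higher and 7 lower in KO libraries and 2 higher and 4 lower in control libraries, and the averaged edgeR contrast called Cxcl14 higher. Ccl4, a macrophage inflammatory protein, had 122 ± 6.43 RPM in B16 Setdb1 KO and 125 ± 2.70 in B16 control (SD, n = 3 each; adjusted p = 0.00156 and 0.00235 for the line difference). Ccl9 had 53.5 ± 1.52 and 53.2 ± 2.71 RPM in B16 Setdb1 KO and B16 control, and Ccl3 34 ± 2.31 and 35.9 ± 1.41. At Ccl5 itself no H3K9me3 island was called in B16 and the nearest lay 11.9 to 38.9 kb away.

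Of 22 chemokine receptors, 16 could be tested in H3K9me3, of which 0 were higher and 2 lower in MC38 among KO libraries (Ccr3 and Ccr2) and 0 higher and 1 lower among control libraries (Ccr3), beside 8% and 7.13% of all regions called. DESeq2 called 1 higher and 8 lower among KO libraries and 0 higher and 5 lower among control libraries. With limma there were 0 higher and 6 lower among KO libraries and 0 higher and 3 lower among control libraries. The shares of 8% and 7.13% are those of edgeR. Over all 25677 regions DESeq2 called 7218 among KO and 7042 among control libraries, and limma 4660 and 5176. In H3K9Ac 18 could be tested, with 0 higher and 1 lower in KO libraries and 1 higher and 2 lower in control libraries. The edgeR test called 17.9% of all H3K9Ac regions in KO and 19.4% in control libraries, so the receptors were not called more often than other regions. Cxcr3, the receptor for Cxcl9 and Cxcl10, had no H3K9Ac island in the 6 MC38 libraries, against 4.05 ± 1.1 RPM in B16 Setdb1 KO and 3.89 ± 1.01 in B16 control (SD, n = 3 each; adjusted p = 0.00467 in KO and 0.004 in control). In control libraries Ccr4 was higher in MC38 (25.2 ± 2.27 against 12.9 ± 3.73 RPM, adjusted p = 0.0159) and Ackr3 lower (9.07 ± 1.53 against 17.2 ± 1.43 RPM, adjusted p = 0.0182).

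Of 26 genes that carry interferon and NF-kB signals to chemokine genes, all 26 could be tested in H3K9Ac, with 4 higher and 2 lower in MC38 among KO libraries and 6 higher and 2 lower among control libraries, beside 17.9% and 19.4% of all regions called. Relb, an NF-kB subunit, was higher in MC38, with 88.6 ± 9.62 against 54.5 ± 9.59 RPM in KO and 83.9 ± 9.11 against 42.8 ± 4.58 RPM in control libraries (adjusted p = 0.00847 and 0.00151). So was Tnfaip3, which restrains NF-kB, with 33.3 ± 6.20 against 14 ± 2.41 RPM in KO and 26 ± 5.78 against 13.5 ± 1.55 RPM in control libraries (adjusted p = 0.00351 and 0.013). Jak2 was higher in control libraries (131 ± 7.40 in MC38 against 98.6 ± 5.14 RPM in B16, adjusted p = 0.0053). In H3K9me3 4 of the 26 could be tested and 1, Il1r1, was called lower in MC38 in each genotype (1 by DESeq2 and 2 by limma). The edgeR test called 8% of all H3K9me3 regions in KO and 7.13% in control libraries. Il1r1 had no island in MC38, against 292 ± 70.3 RPM in B16 Setdb1 KO and 265 ± 10.7 in B16 control (edgeR adjusted p = 0.000946 and 0.00187). In the Setdb1 KO comparisons the edgeR test called 0 genes of these 3 lists in either line and mark; at an unadjusted p under 0.05 there were at most 4 per list and comparison, in H3K9Ac of the other ligands in B16. The other tools called a few, named here after their values were seen. Over all regions DESeq2 called 2126 in B16 and 1840 in MC38 in H3K9me3, and 1024 and 874 in H3K9Ac. With limma these counts were 635 and 72, and 61 and 70. In H3K9me3, DESeq2 called Ccl11 and Cxcl15 higher and Ccr8 lower in B16 Setdb1 KO, and Ccl12, Cxcl15 and Ccr2 lower in MC38 Setdb1 KO, while limma called Ccl11 higher and Jak1 lower in B16 Setdb1 KO. In H3K9Ac, DESeq2 called Ccl1 lower in B16 Setdb1 KO and limma called Ccl24 higher in MC38 Setdb1 KO.

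Among genes whose H3K9Ac followed that of Cxcl1 and Cxcl16, the members with the highest mean per kb over both lines together (1.36 and 1.32 RPM per kb), the closest over the 12 libraries included Pura, Pdp1 and Zfp942 for Cxcl1 (Pearson r of log2(RPM + 0.5) 0.981, 0.978 and 0.971) and H2-DMb2 and Kpna7 for Cxcl16 (0.911 and 0.864). They come from 16800 and 16728 protein-coding genes searched, over 12 libraries that share line and depth, and are given as a description.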

How the data were processed

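H3K9me3 and H3K9Ac were measured in 24 libraries, 3 per line, genotype and mark; 4 input samples were not analysed here. Per the submitters' processing notes, the authors used cutadapt, Bowtie2 2.1.0, SAMtools 0.1.8, SICER 1.1 and deepTools 3.1.1 with build mm10; which input served as background is not given in the sources used here. The deposited values are read counts per island and library, unscaled. Chromatin was digested with MNase and sonicated, per the labels' protocols, and more cells went into each H3K9me3 than into each H3K9Ac library.

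Counts were apportioned by overlap to gene regions (RefSeq table of GRCm38.p6, start to end plus 2 kb) on chromosomes 1 to 19 and X and rounded. They were fitted with edgeR 4.0.16 (TMM, trended dispersion, quasi-likelihood, legacy form) in 1 fit per mark over 12 libraries, for regions with a mean of at least 10 reads, with Benjamini-Hochberg adjustment over all regions tested and a threshold of 0.05. The SE is the size of the log2 change over the root of the F statistic. DESeq2 1.42.0 and limma 3.58.1 (pseudocount 0.5) were alternatives. The fit was also run on simulated counts, with changes only at regions with many reads and in B16 Setdb1 KO alone. The simulation had no islands missing from single libraries, so it does not show how the test performs at members with islands in few libraries. edgeR's bias-adjusted form was run too: its counts over all genes were seen before the legacy form, which uses the trended dispersion, was kept. Averaged contrasts were added once the first 5 had called no member, giving 7 contrasts per mark. Where groups on both sides of a contrast lack islands, no value is given. Such members are left out of the counts of members fitted, while the shares over all regions keep such regions in the total.

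The members, lists and motifs were chosen with earlier results of these data known. All members are named; of each other list, up to 3 called genes by smallest p; neighbours that share an island; and the 3 genes most alike each of the 2 members with the highest mean H3K9Ac per kb over all libraries. Same-numbered KO and control H3K9Ac libraries deviated together (r 0.156 to 0.531 over 6 pairs), so the numbers were taken to pair them in an alternative fit. The main fits had no replicate block. The block was an effect of the replicate number shared by both lines, so it also paired MC38 with B16. Between the lines, same-numbered H3K9Ac libraries of a genotype had r of 0.085 to 0.244. In H3K9me3 the r of same-numbered libraries was -0.254 to 0.308 for KO and control and 0.0345 to 0.259 between the lines. There the numbers were not taken to pair libraries. DESeq2 left some p-values missing, and these stay missing. Some genes that this rule names are not reported here.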

Additional observations from a re-analysis of the deposited data

How the results depend on the processing

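The Setdb1 KO comparisons and the difference between their effects called 0 members in either mark under every alternative run. With the replicate number as a block they also called 0, and for H3K9me3, where the numbers were not taken to pair the libraries, so did the line contrasts. In H3K9Ac the line contrasts within a genotype were less steady. In MC38 control against B16 control, 0 members were called in the report, 2 with 5 kb flanks (Cxcl11 and Ccl2), 1 (Cxcl11) in the 2 kb around the 5 prime end, with an overlap of at least 500 bp, with limma and with the bias-adjusted quasi-likelihood, 1 (Ccl2) with DESeq2, and 0 to 1 with 1 library left out (Ccl5 without MC38 control library 3). In MC38 Setdb1 KO against B16 Setdb1 KO, 0 were called in the report, 1 with 5 kb flanks, 2 in the 2 kb around the 5 prime end, 2 with DESeq2, 1 with limma, 1 with the replicate block (Cxcl1), 2 with the bias-adjusted quasi-likelihood, and 0 to 1 with 1 library left out (Cxcl11 without MC38 Setdb1 KO library 1). For genes without a strand in the reference, Cxcl11 and Ccl2 among them, that 5 prime end was the end with more H3K9Ac, so those calls rest on a window set by the same reads. The averaged line effect, chosen after seeing the data, called 3 members in H3K9Ac, 0 to 4 with 1 library left out, and 4 with the bias-adjusted form (Ccl5 added, as it is with limma); in H3K9me3 it called 0, and 2 (Ccl2 and Ccl7) with 5 kb flanks. Its adjusted p over the other 12 alternatives was 1.33e-05 to 0.0437 for Cxcl11 (missing in DESeq2), 0.000698 to 0.0869 for Cxcl1 and 0.00102 to 0.068 for Ccl2. Only Cxcl2 turned direction with a call: its averaged log2 change was 8.5 (adjusted p = 0.0443) without flanks, a size that depends on the prior count since B16 was at 0, and -0.02 with them. Of 1485 single-gene values under alternatives, 118 had another sign than the main value, 1 of them with a call. The count over all genes depended on the form of the test: the bias-adjusted quasi-likelihood called 8, 4 and 0 H3K9me3 regions in B16 KO, MC38 KO and their difference, against 80, 35 and 102, and 2, 0 and 0 H3K9Ac regions, against 28, 42 and 58. The cause was not tested. DESeq2 called 2126, 1840 and 2863, and 1024, 874 and 1392. Over the processing alternatives the all-gene count for MC38 against B16 ran from 401 to 7042 (control) and 468 to 7218 (KO) in H3K9me3, and from 3582 to 10769 and 3018 to 10274 in H3K9Ac. Regions without a called island have no measured reads, so weak signal is not seen, and the KO errors of Cxcl5, Cxcl11 and Ccl5 leave several-fold changes undetectable.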
